A study of Homo sapiens with 60 samples.

Results

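The 31 genes described here encode the constitutive subunits of the 26S proteasome in A549, a cell line from a human lung carcinoma. They were taken from a fixed list of names: PSMA1 to PSMA7 and PSMB1 to PSMB7 for the 20S core, and PSMC1 to PSMC6, PSMD1 to PSMD4, PSMD6 to PSMD8 and PSMD11 to PSMD14 for the 19S particle. All 31 were matched by symbol to 1 Ensembl gene each in a table of 60675 genes, all 31 passed the filter on low counts, and 17129 genes were tested in all. RNA was sequenced after 24 h of treatment in 60 libraries, which form 20 groups of 3. The groups are the vehicle (0.1% DMSO in the sample labels, 2% in the design text), wortmannin at 10 µM, and 6 hot-water plant extracts at 3 doses each. Wortmannin inhibits PI3-kinases and served as the study's positive control. Zingiberis Rhizoma Recens (ZRR), Zingiberis Rhizoma (ZR), Pinelliae Tuber (PT) and Zizyphi Fructus (ZF) had a high dose of 500 µg/mL, a medium dose of 100 µg/mL and a low dose of 20 µg/mL. For Scutellariae Radix (SR) the doses were 230, 46 and 9.2 µg/mL, and for Coptidis Rhizoma (CR) they were 130, 26 and 5.2 µg/mL. Per the design text, an extract whose IC20 was under 500 µg/mL was given at that IC20 and at dilutions of it. Whether the 3 libraries of a group are separate cultures is not stated, and the tests below take the spread among libraries, possibly technical only, as their error.

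The 26S proteasome degrades proteins that carry ubiquitin chains. Its 20S core is a barrel of alpha rings, which gate the entrance, and beta rings, in which PSMB6, PSMB7 and PSMB5 carry the caspase-like, trypsin-like and chymotrypsin-like active sites. The 19S particle binds the substrate, removes ubiquitin and unfolds the protein: its base holds the 6 ATPases (PSMC1 to PSMC6) with PSMD1, PSMD2 and the ubiquitin receptor PSMD4, and its lid holds the deubiquitinase PSMD14 and scaffold subunits. Subunit genes are known to be transcribed in concert, and when proteasome activity falls the transcription factor NRF1 (gene NFE2L1) raises them through antioxidant response elements in their promoters.

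The core of that element was searched, since it is the sequence that the regulator of these genes is known to bind. The letters TGACNNNGC were looked for on both strands of the RefSeq windows from 250 bases before to 50 bases after each transcript start (GRCh38.p14), and the search did not test for overlap with other motifs. A window was at hand for 26 of the 31 genes, and 7 of them (26.9%) held a match, 2 core and 5 19S genes, beside 4384 of 27305 genes (16.1%) over all windows. The 5 matches that lie before the start are shown with 10 bases on each side, 5′ to 3′ on the strand that holds the motif, whose letters are in capitals.
PSMA4, chr15:78540650-78540678, plus strand, first base 126 before the start: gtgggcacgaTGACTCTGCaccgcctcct
PSMB3, chr17:38752627-38752655, plus strand, first base 104 before the start: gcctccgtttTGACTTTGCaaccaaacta
PSMC5, chr17:63827654-63827682, minus strand of a plus-strand gene, 57 before the start: agggcggcgcTGACACAGCagatccggtc
PSMD3, chr17:39980760-39980788, plus strand, first base 37 before the start: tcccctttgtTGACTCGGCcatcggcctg
PSMD12, chr17:67366724-67366752, minus strand, first base 165 before the start: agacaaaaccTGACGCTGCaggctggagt
PSMD3 has a further match that lies inside the transcript, after its start, and PSMC4 and PSMD1 each have a match placed likewise. A match is a run of letters and no measured binding site.

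Libraries held 17420400 to 36479600 estimated counts. Levels are given as CPM, counts scaled to the TMM-adjusted library size, which are not per length and so do not order genes against each other. The 31 genes lay between 57 and 362 CPM in every library and together took 0.4559% to 0.6208% of counts. The 5 epithelial markers were seen in all 60 libraries at unlike levels, KRT8 at 2030 to 4050 CPM, KRT18 at 1670 to 3120, CDH1 at 19.9 to 35.5, KRT19 at 17.3 to 36.3 and EPCAM at 3.61 to 6.96 CPM. The genes typical of A549 lay between 285 CPM (AKR1C1) and 7550 CPM (ALDH1A1). The leukocyte gene PTPRC and the T cell gene CD3E had at most 1 count in any library. The endothelial genes PECAM1 and CDH5 had at most 3 and 5 counts and the fibroblast gene DCN at most 4. LUM and PDGFRA, also on the fibroblast list, reached 0.902 and 0.787 CPM, LUM with counts in all 60 libraries. Of the blood list, CD68 lay between 3 and 11.4 CPM, and HBA1 reached 11 counts and was at 0 in 5 libraries. Mitochondrial genes took 14.8% to 20.1% of counts in the 6 libraries of CR medium and CR low and 8.33% to 11.6% in the other 54. Over all genes of a library, log2 CPM rises with log2 transcript length by a slope, the length slope, of 0.92 to 1.117 with a median of 1.05, and ZR low replicate 3 and ZF high replicate 2 lay over 3 median absolute deviations from that median. The first part of the sample code is A1 for vehicle, 1 for wortmannin, 2 for ZRR and ZR, 3 for PT and SR and 4 for CR and ZF. What it marks is not given, so code and treatment cannot be told apart against vehicle, while high against low and the pairs ZRR and ZR, PT and SR, and CR and ZF lie within 1 code. In bulk RNA, fewer cells of a kind and less RNA per cell cannot be told apart.

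Subunit mRNA was lower with wortmannin in both the 20S core and the 19S particle. Of the 31 genes, 19 fell and 0 rose (edgeR's quasi-likelihood test, Benjamini-Hochberg adjusted p under 0.05), where 11.9% of all tested genes were lower and 25.3% changed in either direction. The median fold change of the 31 was -0.27 on the log2 scale, from -0.38 to -0.08, beside 0.01 for all genes. In 30 of the 31, each wortmannin library lay below each vehicle library, as in 21.2% of all tested genes, and the exception was PSMB4. By subcomplex, 3 of 7 alpha subunits, 3 of 7 beta subunits, 5 of 6 ATPases, 2 of 3 other base subunits and 6 of 8 lid subunits fell.

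The gene with the smallest p was PSMD11 (ENSG00000108671, chr17:32444261-32483318 in GRCh38 by GENCODE 29), a scaffold of the lid. It measured 298, 295 and 299 CPM in vehicle and 228, 242 and 231 CPM in wortmannin libraries. It fell by 0.35 ± 0.03 (SE, n = 3 per group here and below) on the log2 scale (edgeR adjusted p = 5.01e-11), and no wortmannin library reached a vehicle library. PSMD2 (ENSG00000175166, chr3:184298709-184309054), the base scaffold that docks ubiquitin shuttles, read 291, 293 and 284 CPM in vehicle and 228, 224 and 216 CPM with wortmannin. Its groups did not overlap either, and it fell by 0.38 ± 0.04 (edgeR adjusted p = 1.9e-10). PSMD3 (ENSG00000108344, chr17:39980797-39997960), another lid scaffold, stood at 207, 214 and 216 CPM against 168, 171 and 171 CPM, again without overlap. It fell by 0.32 ± 0.04 (edgeR adjusted p = 1.77e-09). Of the remaining lid genes, the deubiquitinase PSMD14 fell by 0.34 ± 0.06 and PSMD8 by 0.35 ± 0.07, while PSMD7, the inactive partner of PSMD14, and PSMD13 gave -0.14 ± 0.08 and -0.19 ± 0.08 and were not called.

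PSMD8 (ENSG00000099341, chr19:38374536-38383824) had the widest range of group means in the lid, 0.53 on the log2 scale, and read 274, 260 and 280 CPM in vehicle and 204, 219 and 213 CPM with wortmannin. All wortmannin libraries were below all vehicle libraries. Among the ATPases, which pull the substrate into the core, PSMC1 had the widest range of group means, 0.47. It measured 178, 173 and 180 CPM in vehicle and 141, 143 and 139 CPM with wortmannin. The groups did not overlap, and PSMC1 fell by 0.33 ± 0.08 (edgeR adjusted p = 0.00267). Its values are uncertain, since the antisense gene NRDE2 overlaps 75.8% of its exon bases and rows of 13 PSMC1 pseudogenes held 7.209% of the counts of the gene and its copies. PSMC4 gave -0.08 ± 0.05 and was the ATPase not called (edgeR adjusted p = 0.284).

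In the core, the catalytic subunits did not pass the test alike, and whether they differ from each other was not tested. PSMB6, which carries the caspase-like site, read 171, 173 and 183 CPM in vehicle and 139, 147 and 135 CPM with wortmannin. All wortmannin libraries were lower, and PSMB6 fell by 0.32 ± 0.11 (edgeR adjusted p = 0.0243). PSMB7, the trypsin-like subunit, read 159, 151 and 158 CPM against 116, 133 and 131 CPM. Here too the groups stood apart, with a fall of 0.30 ± 0.10 (edgeR adjusted p = 0.0203). PSMB5, the chymotrypsin-like subunit and the main target of proteasome inhibitor drugs, read 167, 172 and 170 CPM against 153, 149 and 146 CPM. Its groups did not overlap either, yet its fold change of -0.18 ± 0.10 was not called (edgeR adjusted p = 0.209). The call of PSMB6 ended without vehicle replicate 2 or 3 or wortmannin replicate 1 or 3 (edgeR adjusted p up to 0.0951), and that of PSMB7 without vehicle replicate 1 or 3 or wortmannin replicate 1 (up to 0.0996).

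PSMA5 (ENSG00000143106, chr1:109399031-109426427), an alpha subunit, had the widest range of group means in its ring, 0.57 on the log2 scale. It measured 103, 103 and 106 CPM in vehicle and 76.1, 84.6 and 81.9 CPM with wortmannin. No library of one group reached the other, and PSMA5 fell by 0.36 ± 0.10 (edgeR adjusted p = 0.00555). PSMA4, the alpha subunit with the motif 126 bases before its start, fell by 0.35 ± 0.10 and PSMB2 by 0.35 ± 0.07. PSMB3, a noncatalytic beta subunit that also has a motif shown above, had the widest range of its ring, 0.60, and stood at 147, 152 and 158 CPM against 122, 131 and 122 CPM. Its groups were apart, but with a standard error of 0.14 the fold change of -0.29 was not called (edgeR adjusted p = 0.132). The fewest of the 31 were called without vehicle replicate 3 (15) and the most without wortmannin replicate 2 (18). In a fit that also held each library's length slope, 29 fell, 13 core and 16 19S genes, where 19.6% of all genes were lower.

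**Figure D1:**
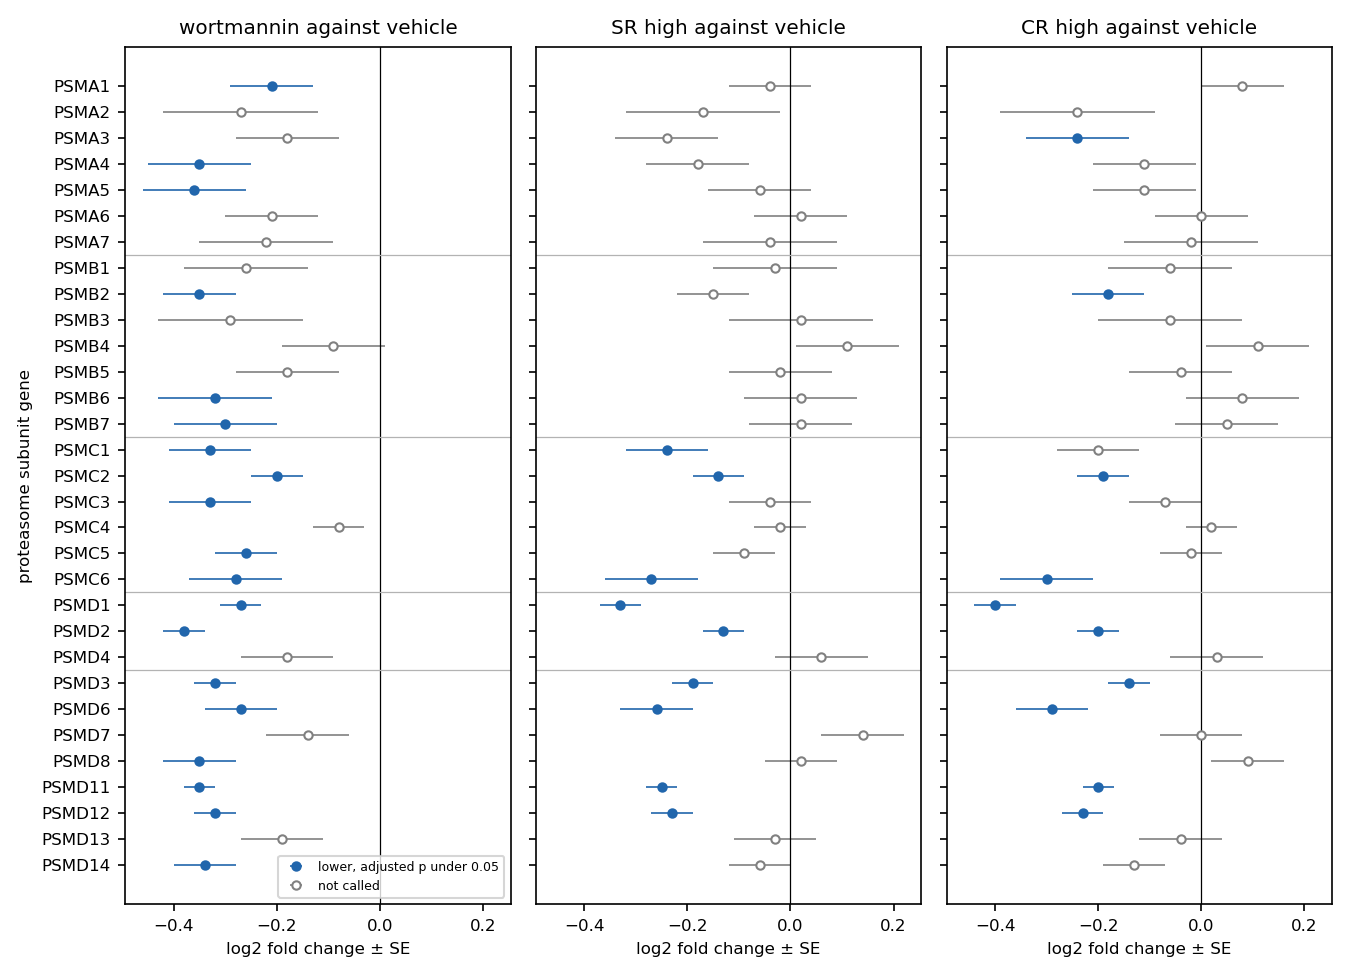
Log2 fold changes against vehicle with standard errors for the 31 subunit genes (rows) under wortmannin, SR high and CR high (3 libraries a group). Filled points have an edgeR adjusted p under 0.05. All 31 wortmannin points lie left of 0, while with SR and CR the filled points are mostly 19S genes, with PSMD1 the farthest left.

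With SR at 230 µg/mL, genes of the 19S particle fell. Of the 31 genes 9 fell and 0 rose (edgeR, adjusted p under 0.05), where 10.9% of all genes were lower and 23.9% changed. All 9 were among the 17 genes of the 19S particle, and 0 of the 14 core genes were called (2 were under an unadjusted p of 0.05, and DESeq2 called 0). The median fold change was -0.13 in the 19S particle, -0.04 in the core and 0.01 over all genes. The core medians were -0.06 for alpha and 0.02 for beta subunits. In 13 of the 31 all SR libraries lay below all vehicle libraries, as in 18.9% of all genes. These were 10 19S genes and 3 core genes that were not called. PSMA3 read 105, 93.2 and 103 CPM against 113, 119 and 125 CPM in vehicle. PSMA4 read 242, 229 and 243 CPM against 258, 277 and 274 CPM, and PSMB2 140, 129 and 143 CPM against 150, 152 and 155 CPM. The 19S gene PSMD7, also uncalled, lay above vehicle, with 134, 128 and 139 CPM against 123, 117 and 125 CPM. Core was not tested against 19S.

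PSMD1 (ENSG00000173692, chr2:231056864-231172827), the second scaffold of the base, read 295, 294 and 284 CPM in vehicle and 229, 227 and 239 CPM with SR high. The groups did not overlap, and PSMD1 fell by 0.33 ± 0.04 (edgeR adjusted p = 1.73e-08). PSMD11 read 243, 255 and 251 CPM with SR high, below all vehicle libraries, and fell by 0.25 ± 0.03 (edgeR adjusted p = 1.05e-07). PSMD12 (ENSG00000197170, chr17:67337916-67366627, minus strand), a lid scaffold with a motif shown above, read 154, 156 and 150 CPM in vehicle and 132, 128 and 131 CPM with SR high. It fell by 0.23 ± 0.04 (edgeR adjusted p = 1.77e-05), without overlap. The others that fell were PSMC6 (0.27 ± 0.09), PSMD6 (0.26 ± 0.07), PSMC1 (0.24 ± 0.08), PSMD3 (0.19 ± 0.04), PSMC2 (0.14 ± 0.05) and PSMD2 (0.13 ± 0.04). Of these, PSMC1 and PSMC2 were no longer called in any of the 6 fits that left out 1 library (edgeR adjusted p up to 0.209 and 0.284). PSMC6 lost its call in 5 of these fits and PSMD2 in 4 (edgeR adjusted p up to 0.159 and 0.155).

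The catalytic genes overlapped vehicle with SR high. PSMB5 stood at 171, 154 and 177 CPM, PSMB6 at 181, 164 and 187 CPM and PSMB7 at 160, 146 and 169 CPM. Their fold changes were -0.02 ± 0.10, 0.02 ± 0.11 and 0.02 ± 0.10. The remaining wide-ranging genes were also near vehicle: PSMA5 at 102, 89.4 and 108 CPM, PSMB3 at 154, 139 and 170 CPM and PSMD8 at 281, 255 and 287 CPM. The number of falling genes was 5 without vehicle replicate 1, without vehicle replicate 2, without SR high replicate 1 or without SR high replicate 2. In the fit with the length slope it was 23, 11 of them core genes, where 15.4% of all genes were lower, so the absence of core calls depends on that setting. The mean slope was 1.052 in SR high, 1.086 in vehicle and 1.103 in wortmannin libraries, and its part in the results was not tested beyond these fits.

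With CR at 130 µg/mL 10 of the 31 fell and 0 rose (edgeR, adjusted p under 0.05), where 16.7% of all genes were lower and 35.1% changed. The 10 were 8 19S genes and the core genes PSMA3 and PSMB2. The median was -0.14 in the 19S particle and -0.05 in the core, beside 0.01 over all genes. In 16 of the 31 all CR libraries lay below all vehicle libraries, as in 25% of all genes. PSMD1 read 214, 229 and 217 CPM, below each vehicle library. Its fall by 0.40 ± 0.04 (edgeR adjusted p = 2.72e-11) had the smallest p of the 31. PSMD11 read 265, 261 and 252 CPM and fell by 0.20 ± 0.03 (edgeR adjusted p = 7.34e-06). PSMD12 read 130, 132 and 131 CPM and fell by 0.23 ± 0.04 (edgeR adjusted p = 1.23e-05). In both, all CR libraries were below all vehicle libraries. PSMC6 fell by 0.30 ± 0.09, PSMD6 by 0.29 ± 0.07, PSMA3 by 0.24 ± 0.10, PSMD2 by 0.20 ± 0.04, PSMC2 by 0.19 ± 0.05, PSMB2 by 0.18 ± 0.07 and PSMD3 by 0.14 ± 0.04. The call of PSMA3 (edgeR adjusted p = 0.0474) ended in each of the 6 fits that left out 1 library, and that of PSMB2 in 5.

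Of the catalytic genes with CR high, PSMB6 stood at 185, 176 and 196 CPM and PSMB7 at 162, 155 and 167 CPM, with fold changes of 0.08 ± 0.11 and 0.05 ± 0.10. PSMB5 read 167, 162 and 166 CPM, at or below the lowest vehicle library, with -0.04 ± 0.10. PSMD8 read 289, 280 and 299 CPM, at or above the highest vehicle library, with 0.09 ± 0.07. PSMC1 read 148, 156 and 157 CPM, below vehicle, with -0.20 ± 0.08 (edgeR adjusted p = 0.0543). PSMA5 read 94.3, 96 and 98.3 CPM, below vehicle, and PSMB3 146, 147 and 147 CPM, at or below its lowest vehicle library, both without a call. In the fit with the length slope 19 of the 31 fell, 8 of them core genes, where 21.6% of all genes were lower. A fit of these 6 libraries alone called 16, for which the share of all genes is not given here.

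**Figure D2:**
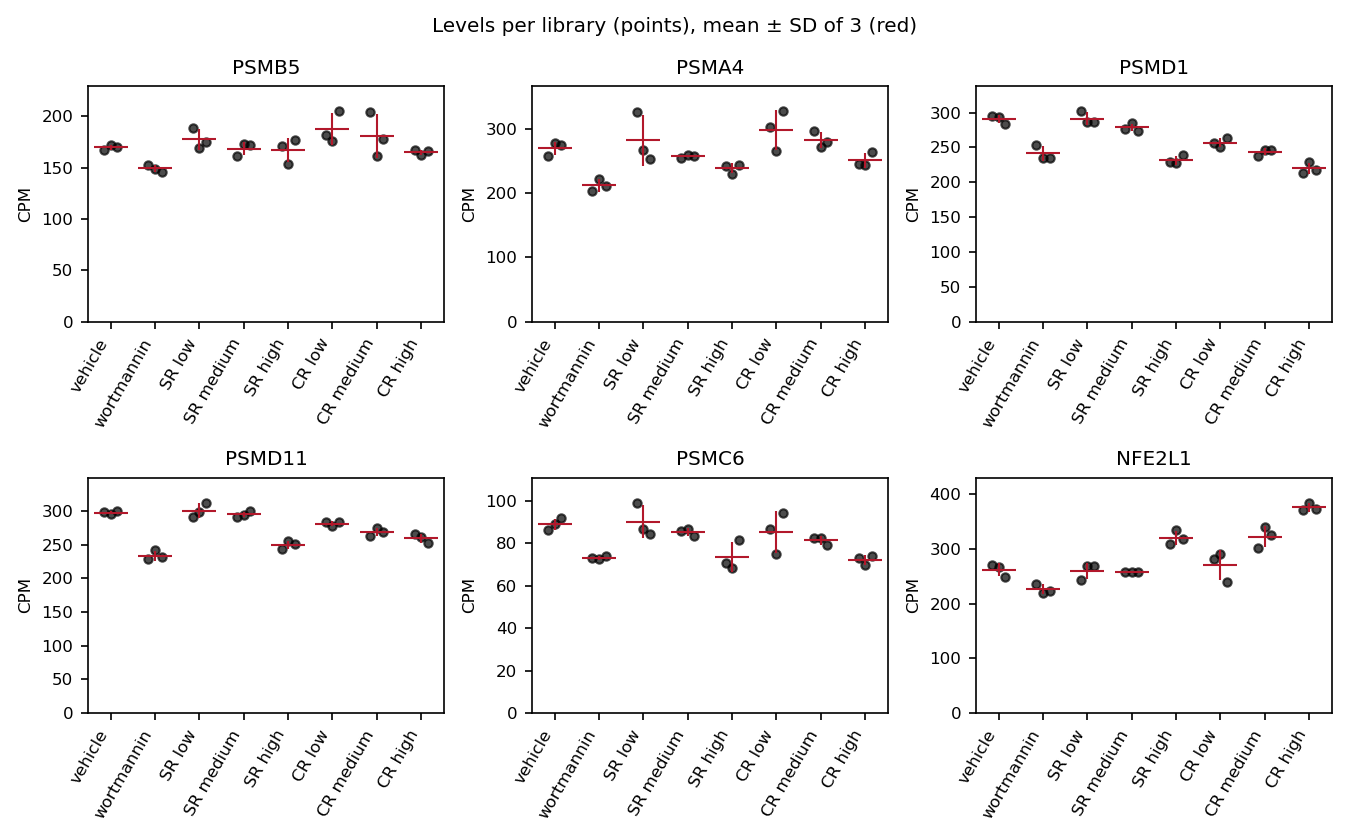
Levels in CPM of 5 subunits and of NFE2L1 in vehicle, wortmannin, SR and CR libraries. Points are libraries and red marks are the mean and SD of 3. PSMD1 lies between 214 and 239 CPM in SR high and CR high and between 284 and 295 CPM in vehicle, while PSMB5 lies between 154 and 177 CPM in SR high and CR high, around the vehicle libraries.

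Wortmannin was then set directly against the 2 extracts, a pair of comparisons chosen after the data were seen. Against SR high, 14 of the 31 were lower with wortmannin and 0 higher, 5 core and 9 19S genes, where 16.3% of all genes were lower and 32.1% changed (edgeR, adjusted p under 0.05). Against CR high, 13 were lower, 6 core and 7 19S genes, and PSMD1 was higher, where 19.9% of all genes were lower, 20.2% higher and 40% changed. PSMD8 had a log2 difference of -0.37 ± 0.07 from SR high and -0.45 ± 0.07 from CR high (edgeR adjusted p = 3.2e-05 and 6.1e-07). PSMB6 differed by -0.34 ± 0.11 and -0.4 ± 0.11 (edgeR adjusted p = 0.0142 and 0.00239), and PSMB7 by -0.32 ± 0.10 and -0.35 ± 0.10 (edgeR adjusted p = 0.00998 and 0.00387). Against SR high, the calls of PSMB6 and PSMB7 each ended in 2 of the 6 fits that left out 1 library (edgeR adjusted p up to 0.0646 and 0.0652). PSMD1 differed by 0.06 ± 0.04 from SR high, which was not called, and by 0.13 ± 0.04 from CR high (edgeR adjusted p = 0.00757), a call that ended without wortmannin replicate 1, CR high replicate 1 or CR high replicate 3 (adjusted p up to 0.196). PSMC6, PSMC2, PSMD6 and PSMA3 lay within 0.07 of 0 in both. The fit with the length slope changed the balance of directions: against SR high it called 14 lower and 2 higher (PSMA3 and PSMD1), and against CR high 14 lower and 5 higher (PSMA2, PSMA3, PSMC6, PSMD1 and PSMD6), where 21% and 25.1% of all genes were lower and 40.4% and 49% changed. The count against SR high was 7 without SR high replicate 3 and 9 without wortmannin replicate 1. Wortmannin, SR and CR libraries carry different sample codes, which cannot be told apart from treatment here.

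Comparisons within 1 sample code gave falls in 19S genes too. SR high against SR low lowered 9 of the 31, all 9 in the 19S particle (edgeR, 9.36% of all genes lower and 20.4% changed). Of the core genes 3 were under an unadjusted p of 0.05 and DESeq2 called 1, and core was not tested against 19S. PSMD1 read 302, 286 and 286 CPM in SR low, above each SR high library, and differed by -0.33 ± 0.04 (edgeR adjusted p = 1.63e-08). The count was 5 without SR low replicate 1 or without SR high replicate 2, and in the fit with the length slope 14 fell, 4 of them core genes, and PSMD7 rose, where 15.1% of all genes were lower and 30.9% changed. SR high against PT high, both with code 3, lowered 12, 3 core and 9 19S genes (edgeR, 10.1% of all genes lower and 21.5% changed). PSMD1 read 283, 316 and 295 CPM in PT high, a difference of -0.36 ± 0.04 (edgeR adjusted p = 1.58e-09). The count was 5 without PT high replicate 2 and 7 without SR high replicate 2.

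CR high against CR low lowered 9, 3 core and 6 19S genes (edgeR, 12.3% of all genes lower and 25.4% changed). PSMD1 read 257, 250 and 263 CPM in CR low, between CR high and vehicle, and was lower in CR high by a log2 difference of -0.22 ± 0.04 (edgeR adjusted p = 4.5e-05). The count was 5 without CR high replicate 2 or without CR low replicate 3 and 14 without CR low replicate 2. The share of mitochondrial counts was 14.8% to 20.1% in CR low and 10.4% to 11.4% in CR high, and its part in this difference was not tested. The mean length slope was 1.057 in CR high and 0.991 in CR low. With the slope in the fit, 8 fell, 2 core and 6 19S genes, where 14.5% of all genes were lower and 29.7% changed. The median fold change of the 31 was -0.15 without the slope and -0.04 with it. CR high against ZF high lowered 14, 4 core and 10 19S genes (edgeR, 16.6% of all genes lower and 34% changed), with PSMD1 at 280, 305 and 280 CPM in ZF high and -0.39 ± 0.04 (edgeR adjusted p = 7.33e-11). The count was 7 without ZF high replicate 2, which lies far out in length slope. In the fit with the length slope 14 fell, and PSMA1 and PSMD8 rose, where 21.6% of all genes were lower and 43.8% changed.

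For the other high doses, 0 of the 31 genes were called by edgeR against vehicle, where the share of all genes called in either direction was 4.03% for ZRR, 5.35% for ZR, 1.4% for PT and 0.00584% for ZF. At an unadjusted p under 0.05 there were 1, 2, 2 and 1 of the 31, and DESeq2 called 0, 1, 0 and 0. The fit with the length slope called 4 lower for ZRR (PSMA2, PSMC6, PSMD2 and PSMD6), 3 lower for ZR (PSMA2, PSMC6 and PSMD1) and 0 for PT and ZF, where 3.85%, 5.68%, 0.374% and 0.0409% of all genes were lower. The medians were 0, -0.01, 0.09 and 0.08. With ZRR high, PSMD2 read 269, 278 and 274 CPM and PSMD1 282, 270 and 273 CPM, each below all vehicle libraries, with -0.08 ± 0.04 in both. PSMD1 read 270, 270 and 263 CPM with ZR high, also below vehicle, with -0.12 ± 0.04 (edgeR adjusted p = 0.0786), and PSMC4, at 232, 244 and 244 CPM, gave 0.12 ± 0.05. With PT high, PSMC4 read 238, 259 and 240 CPM, above the vehicle values of 218, 214 and 233 CPM, with 0.15 ± 0.05 (edgeR adjusted p = 0.132). PSMB6 gave 0.22 ± 0.11, with 187, 244 and 182 CPM. With ZF high, PSMC4 read 231, 265 and 230 CPM and PSMB4 174, 227 and 167 CPM, in overlap with vehicle, with 0.13 ± 0.05 and 0.15 ± 0.10. In PT high and ZF high, replicate 2 was the high library in each of these genes. High against low called PSMD6 for ZRR (-0.24 ± 0.07, edgeR adjusted p = 0.02, 1.7% of all genes lower and 4.17% changed). That call ended when ZRR high replicate 1 or 3 or ZRR low replicate 2 was left out, and 2 genes were called without ZRR low replicate 1. In the fit with the length slope, PSMD6 was also lower, and PSMA1 and PSMA6 were higher, where 4.57% of all genes were lower and 9.3% changed. High against low called 0 for ZR, PT and ZF (4.64%, 0.549% and 0% of all genes called, 1, 0 and 0 of the 31 at an unadjusted p under 0.05, and 0 by DESeq2). ZRR high against ZR high called 0 of the 31 (0.712% of all genes, 0 at an unadjusted p under 0.05 and 0 by DESeq2).

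Of the 12 comparisons of medium and low doses with vehicle, 10 called 0 of the 31 by edgeR, where the share of all genes called was 0.28% for ZRR medium, 0.922% for ZR medium, 0.0175% for PT medium, 0% for SR medium, 0.0117% for ZF medium, 0.111% for ZRR low, 0.00584% for ZR low, 0% for PT low, 0.00584% for SR low and 0.0117% for ZF low. In those 10, between 0 and 13 of the 31 were under an unadjusted p of 0.05, the most in ZR medium, and DESeq2 called 1 gene in ZR medium and 0 in the others. The median fold changes of the 31 ran from -0.03 in SR medium to 0.15 in ZR medium. ZRR medium and ZRR low both gave 0.13, beside 0 over all genes. No subunit had a negative fold change in ZR medium or ZRR medium. In the fit with the length slope the medians of ZR medium, ZRR medium and ZRR low were -0.04, 0 and -0.06. CR medium lowered PSMD1 by 0.25, PSMD11 by 0.15, PSMD12 by 0.17 and PSMD2 by 0.11 on the log2 scale, where 11.1% of all genes were lower and 23.2% changed. CR low lowered PSMD1 by 0.18 (9.15% of all genes lower) and raised PSMA6 by 0.25 and PSMC4 by 0.14 (8.51% higher, 17.7% changed). In the fit with the length slope PSMA6 and PSMC4 gave 0.01 ± 0.04 and 0.02 ± 0.03 and were not called, and 15 of the 31 fell in CR medium and 15 in CR low, where 13.3% and 5.88% of all genes were lower. That fit also called 3 core genes lower in ZRR low, PSMA1, PSMA2 and PSMB1, where 0.432% of all genes were lower. Over the 12 comparisons 7 calls were made, and 4 without vehicle replicate 1 or without vehicle replicate 2.

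PSMD1 stood in CR at 257, 250 and 263 CPM (low), 238, 247 and 246 CPM (medium) and 214, 229 and 217 CPM (high). Low did not overlap medium or high, nor medium high, although medium against low and high against medium were not tested. In SR, PSMD1 was at 302, 286 and 286 CPM (low), 277, 285 and 274 CPM (medium) and 229, 227 and 239 CPM (high). The high dose lay below the other doses and vehicle, and the medium dose just below the low dose and in overlap with vehicle.

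Over the 20 groups, wortmannin had the lowest mean in 27 of the 31 genes and CR high in the other 4, PSMA3, PSMC6, PSMD1 and PSMD6. The mean log2 level of the 14 core genes relative to vehicle was -0.26 ± 0.06 (SD, n = 3) with wortmannin and that of the 17 19S genes -0.27 ± 0.02. In SR high these means were -0.05 ± 0.11 and -0.12 ± 0.06, and in CR high -0.05 ± 0.04 and -0.13 ± 0.01. The 19S mean of each of these 6 extract libraries was below each vehicle library, from -0.19 to -0.07, whereas the core means overlapped. The highest core mean was 0.20 ± 0.08 in ZR medium, where the 19S mean was 0.10 ± 0.05. The core mean of a group varied more between replicates where single libraries had a low length slope, as in ZR low (0.11 ± 0.28), ZF high (0.10 ± 0.26) and PT high (0.13 ± 0.18).

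**Figure D3:**
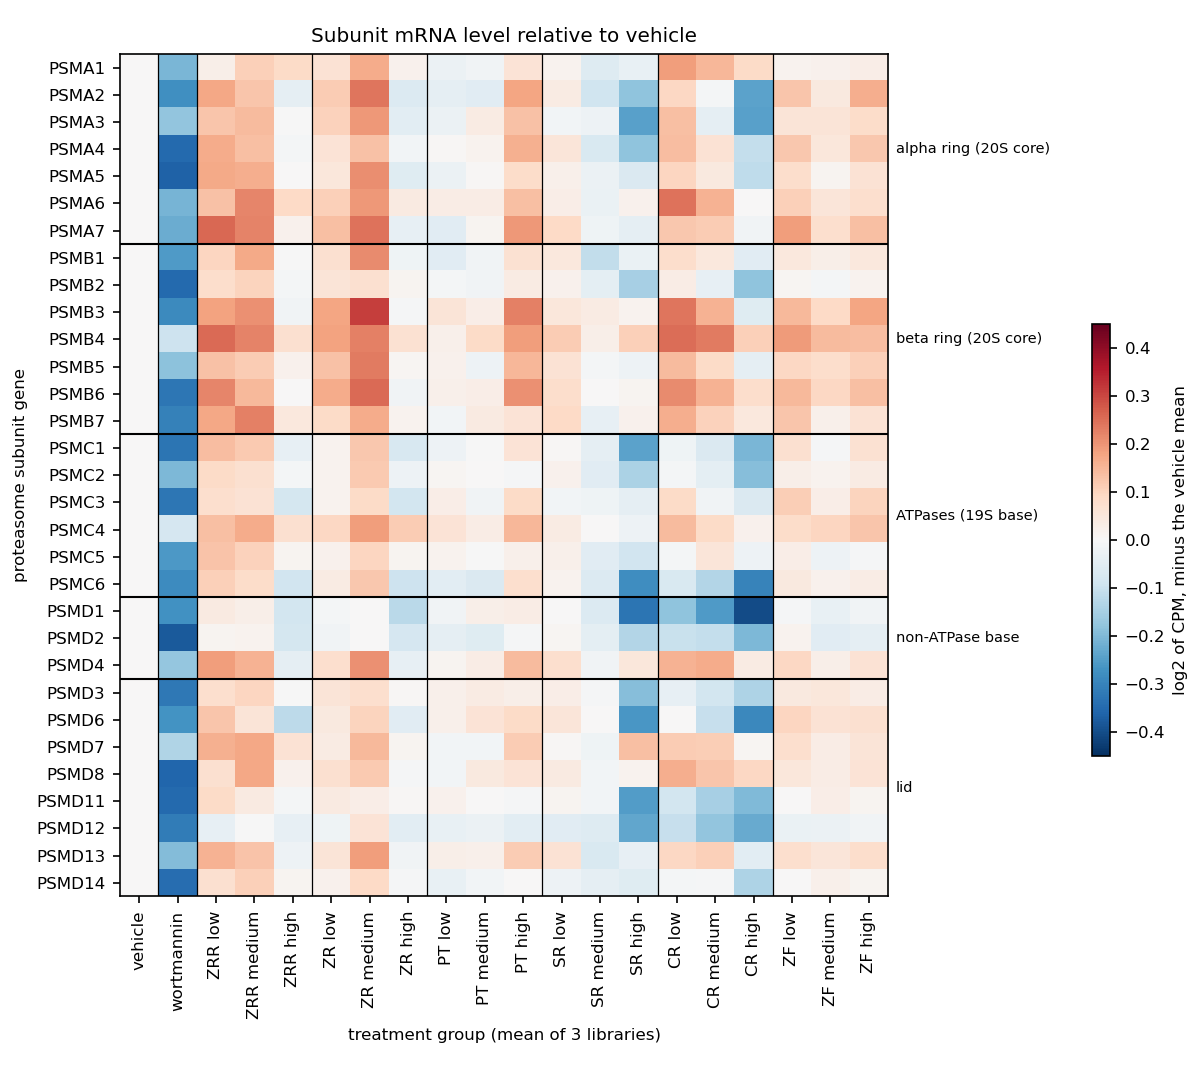
Mean log2 CPM of each subunit gene (rows, by subcomplex) in each of the 20 groups (columns, 3 libraries each), minus the vehicle mean. The wortmannin column is blue in all 31 rows, and in SR high and CR high the bluest cell is PSMD1.

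The genes moved together across groups. The median Pearson correlation of pairs over the 20 group means was 0.87 within the core (91 pairs), 0.79 within the 19S particle (136 pairs) and 0.80 between them (238 pairs), where the groups share normalisation and the length slope. PSMA5 was most like the mean of the other 30 genes (0.98) and PSMD1 least (0.67). The core means followed the length slope of the libraries: ZR low replicate 3, with the lowest slope of 0.92, had the highest core mean, 0.43. The wortmannin libraries, with slopes of 1.094 to 1.112, had core means of -0.31 to -0.19, below the vehicle libraries at slopes of 1.058 to 1.117 and core means of -0.05 to 0.05. Core genes have shorter transcripts, with a median longest GENCODE 29 transcript of 1733 nt, than 19S genes with 2939 nt or all tested genes with 3213 nt. Among the 31 genes the Spearman correlation of fold change with transcript length was -0.375 for wortmannin, -0.536 for SR high and -0.571 for CR high, beside 0.0357, -0.148 and -0.0925 over all genes with a length. These are correlations across genes, which are not independent replicates.

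**Figure D4:**
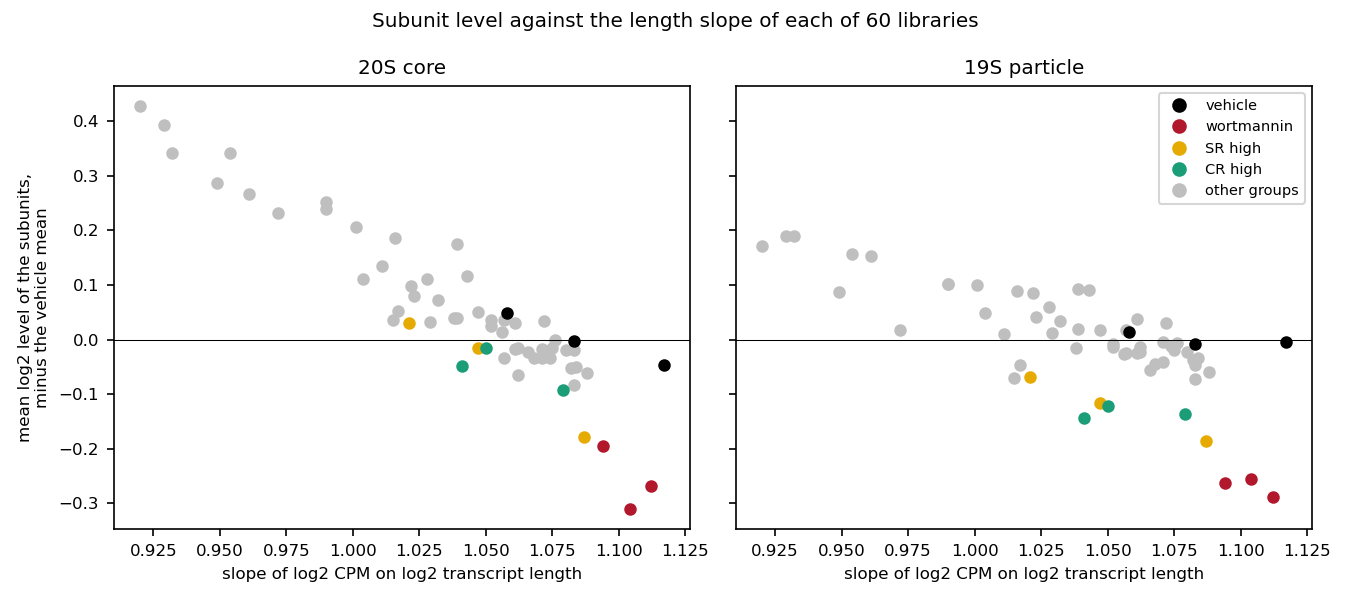
Mean log2 level of the 14 core genes (left) and the 17 19S genes (right) relative to vehicle in each of the 60 libraries, against the length slope of that library. Both means are higher at low slopes, and the 3 wortmannin libraries lie below vehicle libraries of like slope in both panels.

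The regulator NFE2L1 did not move with the subunits in all 3 treatments. It read 270, 267 and 249 CPM in vehicle, 236, 220 and 223 CPM with wortmannin, 309, 334 and 317 CPM with SR high and 370, 384 and 372 CPM with CR high. The wortmannin libraries were all below vehicle and those of both extracts all above it. NFE2L1 fell by 0.21 ± 0.07 with wortmannin, while with SR high it rose by 0.29 ± 0.07 and with CR high by 0.52 ± 0.07 (edgeR adjusted p = 0.0206, 0.0014 and 3.76e-08). The fall ended without vehicle replicate 1 (edgeR adjusted p = 0.0629) or wortmannin replicate 2 (edgeR adjusted p = 0.0572). NFE2L1 was also higher in SR high than PT high by 0.37 ± 0.07 and in CR high than ZF high by 0.60 ± 0.07 (edgeR adjusted p = 6.7e-05 and 9.42e-10), and in CR medium by 0.30 ± 0.07 over vehicle. Of the 7 genes of the NRF1 list, which holds NFE2L1, its relative NFE2L2, the NRF1-processing enzymes DDI2 and NGLY1 and the partners MAFF, MAFG and MAFK, 0 rose and 4 fell with wortmannin, while 5 rose and 1 fell with each of SR high and CR high. Of all tested genes, 25.3%, 23.9% and 35.1% changed in these comparisons. DDI2, among those that fell with wortmannin and the one that fell with SR high, lost its call in 4 of 6 fits that left out 1 library in each of these comparisons.

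The small MAF proteins pair with NRF1 and NRF2 on the element. MAFF was at 5.23, 4.63 and 4.03 CPM in vehicle, 8.95, 9.25 and 9.89 CPM in SR high and 10.9, 10.3 and 11 CPM in CR high. MAFF rose by 1.01 ± 0.09 with SR high and by 1.2 ± 0.09 with CR high (edgeR, 3.18e-12 and 1.87e-15 as adjusted p), and gave 0.07 ± 0.10 with wortmannin. MAFG rose by 0.25 ± 0.04 and 0.43 ± 0.04 in the extracts and fell by 0.13 ± 0.04 with wortmannin. MAFK rose by 0.37 ± 0.04 with SR high and fell by 0.42 ± 0.04 with CR high and by 0.11 ± 0.04 with wortmannin. Changes in the NRF1 list were not confined to these treatments. With ZR high, where no subunit was called, 2 genes of the list rose and 1 fell. MAFK read 139, 142 and 134 CPM with ZR high against 183, 183 and 183 CPM in vehicle. In each of ZRR high and PT high, 1 gene of the list rose. That of PT high was MAFF, at 6.28, 5.82 and 6.03 CPM. Its call ended in 5 of the 6 fits that left out 1 library (edgeR adjusted p up to 0.134). Of all genes 5.35%, 4.03% and 1.4% changed with ZR, ZRR and PT high. The wortmannin calls of MAFG and MAFK ended in 2 and 4 of the 6 fits that left out 1 library.

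The immunoproteasome swaps the catalytic subunits for PSMB8, PSMB9 and PSMB10, all low in these cells. PSMB8 read 5.28, 6 and 5.78 CPM in vehicle, 8.04, 9.22 and 7.85 CPM with wortmannin and 9.72, 8.72 and 9.09 CPM with CR high. It rose by 0.55 ± 0.16 and 0.69 ± 0.15, without overlap with vehicle (edgeR adjusted p = 0.00571 and 0.000283), and gave 0.28 ± 0.16 with SR high. PSMB10 rose by 0.38 ± 0.15 with CR high (edgeR adjusted p = 0.0477, 0.0586 by DESeq2), from 9.02, 9.25 and 10.3 to 12, 12.7 and 12.5 CPM, a call that ended in each of the 6 fits that left out 1 library. It gave 0.14 ± 0.16 with wortmannin and 0.09 ± 0.16 with SR high. PSMB9 gave 0.10 ± 0.14, 0.03 ± 0.14 and -0.13 ± 0.14 in the 3 treatments. PSME1, part of the activator ring that caps the immunoproteasome, rose with wortmannin (0.52 ± 0.10), SR high (0.35 ± 0.10) and CR high (0.28 ± 0.10), from 47.3, 46.2 and 49.4 CPM to 66.4, 71.2 and 67.9, 64.2, 56.8 and 61.2, and 56.8, 58 and 58.7 CPM. The call for CR high ended in 4 of the 6 fits that left out 1 library (adjusted p up to 0.085). PSME1 was also called higher with PT high, at 61.6, 68.1 and 55.4 CPM, where 1.4% of all genes changed. That call ended in 5 of the 6 fits that left out 1 library (edgeR adjusted p up to 0.399). Of the 6 activators and inhibitors, 1 rose and 2 fell with wortmannin (PSME3 by 0.32 ± 0.04 and the inhibitor PSMF1 by 0.19 ± 0.04), 1 rose and 2 fell with SR high (PSME3 by 0.21 ± 0.04 and PSME4 by 0.29 ± 0.09), and with CR high 1 rose, where 25.3%, 23.9% and 35.1% of all genes changed.

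Of 9 assembly chaperones, which build the core and the base, 0 rose and 3 fell with wortmannin (PSMG1 by 0.32 ± 0.11, PSMD5 by 0.16 ± 0.06 and PSMD10 by 0.21 ± 0.08), and PSMD10 was the one called with CR high, where it fell by 0.27 ± 0.08. Of all tested genes 11.9% were lower with wortmannin and 16.7% with CR high. The wortmannin calls of PSMG1, PSMD5 and PSMD10 ended in 5, 4 and 5 of the 6 fits that left out 1 library, and that of PSMD10 with CR high in 1. With SR high no chaperone was called, and the largest difference was 0.32 ± 0.12 in PSMG3 (edgeR adjusted p = 0.0542). POMP, the chaperone of core maturation, read 95.5, 104 and 116 CPM in vehicle and 86.4, 89.5 and 90.6 CPM with wortmannin, 98.1, 83.8 and 97.1 CPM with SR high and 91.1, 86.5 and 97.1 CPM with CR high. The wortmannin libraries were lower without overlap, but -0.24 ± 0.10 was not called (edgeR adjusted p = 0.0761), nor were -0.18 ± 0.10 and -0.20 ± 0.10. Of the further subunits, the ubiquitin receptor ADRM1 fell by 0.34 ± 0.07 with wortmannin and gave 0.01 ± 0.07 and 0.00 ± 0.07 with SR high and CR high. SEM1 was called in none of these 3, and PSMA8 and PSMB11, subunits of testis and thymus proteasomes, did not pass the filter.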

How the data were processed

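RNA of A549 cells was sequenced as paired reads of 100 bases with a directional mRNA kit (MGIEasy), per the labels' protocols. The deposited values are estimated counts per gene, made by the authors on GRCh38, per the submitters' processing notes. Those notes name RSEM 1.3.3 and STAR 2.7.3a, with reads trimmed or checked by tools listed as Trim Galore 0.6.5 and FastQC 0.11.9. Neither the strand setting of the counting nor its annotation release is given in the labels or in the lists of tools and builds used here. The 60 columns of these samples were read and 209 others were not used. Of the gene IDs, 3620 had no name and held 0.0579% of counts. No 2 libraries were identical.

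Counts were rounded and fitted with edgeR 4.0.16 under R 4.3.3 (TMM, filterByExpr, robust quasi-likelihood fit of all 60 libraries with 1 coefficient a group, 40 residual degrees of freedom). P-values were Benjamini-Hochberg adjusted over all 17129 genes tested, and a gene was called at an adjusted p under 0.05. The standard error is the log2 fold change divided by the square root of F. The fit's common coefficient of biological variation was 7.04%, and replicates correlated at 0.975 or more. Transcript length was taken from GENCODE 29 (the longest per gene) and was at hand for 99.3% of the genes tested. On simulated data of 16933 genes for wortmannin against vehicle, 51% of 100 genes lowered 1.2-fold and 96% of 100 lowered 1.5-fold were called. Another 7 genes were called as well. Only the lowered genes were changed and no length slope was simulated, while 25.3% of genes were called in the real comparison. These shares need not hold for the real data.

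The genes and lists were chosen with earlier results of these data known. Values per library are given for the 3 called subunits with the smallest p against vehicle (the 2 smallest where none was called), the catalytic subunits and the gene of each subcomplex with the widest range of group means. For other lists up to 3 called genes were named, with NFE2L1, POMP and PSMB8 to PSMB10 always given. PSMG3, an uncalled gene, was chosen after its values were seen. Some genes of the ubiquitin and shuttle list are not reported here. The comparisons of wortmannin with SR high and CR high were added after the data were seen. Alternatives were DESeq2 1.42.0 and its size factors, no filter, only the libraries compared, a replicate block, the length slope with and without the block, leaving out the 2 libraries far out in slope, and leaving out each library.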

Additional observations from a re-analysis of the deposited data

How the results depend on the processing

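The number of the 31 genes called kept within 1.5 times of its value in each comparison with DESeq2's size factors and with the replicate block alone. With the length slope, and also with the replicate block and the slope, it was 29 and 29 for wortmannin, 23 and 23 for SR high, 19 and 19 for CR high, 4 and 3 for ZRR high, 3 and 3 for ZR high, 15 and 15 for SR high against low, and 33 and 33 over the medium and low doses. In ZRR high against low both of these fits called 3, 2 higher and 1 lower, which turned the balance of directions. DESeq2 called 1 for ZR high and 3 for ZRR high against low. Without a filter the counts were 4 for PT high, 6, 2 and 2 for ZRR, ZR and PT high against low, and 25 over the medium and low doses. Only the libraries compared gave 29 for wortmannin, 16 for CR high, 0 for ZRR high against low, 6 for CR high against ZF high, 24 for wortmannin against CR high and 42 over the medium and low doses. Without the libraries far out in slope, CR high against ZF high gave 8 and the medium and low doses 21. The share of all genes called is not given here for the fits without a filter, of only the libraries compared or without the far-out libraries. Their counts can therefore not be read against all genes. The cause of these changes was not tested. With the slope removed, the range of subcomplex means over the 20 groups was 0.21 for the alpha ring, 0.21 for the beta ring, 0.23 for the ATPases, 0.25 for the other base subunits and 0.29 for the lid, from 0.46, 0.47, 0.37, 0.36 and 0.39. Leaving out 1 library gave 15 to 18 for wortmannin, 5 to 7 for SR high, 8 to 9 for CR high, 0 to 2 for ZRR high against low, 5 to 10 for SR high against low, 5 to 14 for CR high against low, 5 to 12 for SR against PT, 7 to 16 for CR against ZF, 7 to 15 and 10 to 14 for wortmannin against SR and CR high, and 4 to 10 over the medium and low doses. Of 111 calls of single subunits outside the medium and low doses, DESeq2 kept 111, the replicate block 109, the slope 109, no filter 93 and only the libraries compared 91. Without the libraries far out in slope 8 of 14 were kept, and with each library left out 521 of 666. None of these reversed. In no comparison were all 3 correlations between the deviations of same-numbered libraries over 0.1. For ZR low against vehicle they were 0.1, 0.07 and 0.17, and for CR low against vehicle 0.03, 0.06 and 0.09. In both of these, every library correlated best with the library of its own number, which held in no other comparison. What same-numbered libraries share was not tested. With the block 19, 9 and 10 subunits were called for wortmannin, SR high and CR high. Estimated counts without molecular identifiers limit the precision of low genes such as PSMB8.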

Other observations

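Genes that feed the proteasome with substrate also changed. Of 15 ubiquitin and shuttle genes, 10 fell with wortmannin, 5 with SR high and 5 with CR high (edgeR, adjusted p under 0.05), where 11.9%, 10.9% and 16.7% of all genes were lower. VCP, the ATPase that extracts ubiquitinated proteins from complexes and membranes, read 605, 632 and 625 CPM in vehicle and 566, 523 and 521 CPM with wortmannin. It read 516, 516 and 532 CPM with SR high and 484, 479 and 478 CPM with CR high, so all 9 treated libraries lay below vehicle. VCP fell by 0.21 ± 0.04, 0.25 ± 0.04 and 0.37 ± 0.04 on the log2 scale (edgeR adjusted p = 1.26e-05, 3.65e-07 and 7.47e-12).

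The shuttle RAD23B, which carries ubiquitinated proteins to the 19S particle, fell by 0.32 ± 0.04 with wortmannin and gave -0.04 ± 0.04 with SR high and -0.05 ± 0.04 with CR high. UCHL5, a deubiquitinase bound to ADRM1, fell by 0.38 ± 0.05 with wortmannin and 0.21 ± 0.05 with CR high, and the shuttle UBQLN2 fell by 0.37 ± 0.05 with SR high.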
